A study of Mus musculus with 4 samples.

Results

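The cells described here are the S100a6-positive, Fcer2a-negative B cells of mouse blood that carry no Jchain transcript. They were selected on their measured transcripts, counted as unique molecular identifiers (UMIs, 1 per captured RNA molecule): at least 3 UMIs of Cd79a, the signaling chain of the B cell receptor, at least 2 of S100a6, 0 of Fcer2a (the low-affinity IgE receptor CD23), 0 of Jchain (the joining chain of secreted antibody) and 0 of Adm, and at most 2 of Vpreb3, 4 of Lyz2 and 1 of the 3 Cd3 chains together. The rule found 2151 of the 14588 cells. They are called S100a6+ cells here, and they were set beside 1829 B cells of the same pools chosen with the same limits except for at least 1 Fcer2a UMI and 0 S100a6 UMIs (Fcer2a+ cells).

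B cells carry antigen receptors and, once activated, can become memory cells or antibody-secreting plasma cells. Follicular B cells circulate between blood and lymphoid follicles, display CD23 and complement receptor on their surface, and follow the chemokine receptor CCR7 into lymph nodes. B1 cells, best known from the body cavities, and memory B cells differ from them in surface receptors and in transcription factors, and S100a6 encodes a small calcium-binding protein that is common in activated and memory lymphocytes.

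Blood came from C57BL/6 female mice aged 4 months (young) or 24 months (old), with no genetic change or treatment named in the labels. Each of the 2 young and 2 old samples pooled 2 mice, so the replicate was the pool, n = 2 for each age, and the mice of 1 pool could not be told apart. White cells were separated on a density gradient, red cells were lysed, and RNA was read from the 3′ end in droplets.

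The S100a6+ cells numbered 183 and 130 in young pools 1 and 2, and 1412 and 426 in old pools 1 and 2. They were deeper than the Fcer2a+ cells, with a median of 3785 to 4441 UMIs per cell and pool against 2064 to 2184. Old pool 1 gave 6762744 of their UMIs and the other pools 608387 to 2102682. Of all barcodes, 108 occurred in more than 1 pool, and 37 of the S100a6+ cells had such a barcode. Summed over the listed markers, T cell genes held 47.9 to 87.1 CPM (UMIs of a gene scaled to a fixed total for every pool and class) in the S100a6+ cells and monocyte and dendritic genes 596 to 820 CPM, against 29.5 to 79.8 and 514 to 652 CPM in the Fcer2a+ cells. Haemoglobin RNA made up 0.418% of the UMIs of the S100a6+ cells in young pool 1 and 4.63% to 5.81% in the other pools. Platelet genes differed by age and are given with the age comparison.

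The S100a6+ cells took a larger part of the B cells in both old pools than in either young pool. They made up 9.06% of the 2019 B cells of young pool 1 (exact 95% Clopper-Pearson interval 7.85% to 10.4%, counting error only) and 6.47% of the 2008 of young pool 2 (5.44% to 7.64%). In old pool 1 they made up 42.2% of 3349 B cells (40.5% to 43.9%), and in old pool 2 28.0% of 1522 (25.7% to 30.3%). The ages did not overlap, and the old pools lay further apart than the young ones. The mean was 7.77% ± 1.83 in young and 35.1% ± 10.0 in old blood (SD, n = 2), a difference of 27.3 percentage points. The exact permutation test of the pool percentages, two-sided, gave p = 0.33, the smallest value that its 6 labellings allow. With each cell thinned to 1000 UMIs before the rule was applied, 5.66% and 4.01% of young B cells and 35.5% and 16.8% of old B cells met it. Fewer cells of other B cell kinds and more S100a6+ cells cannot be told apart in a share.

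**Figure D1:**
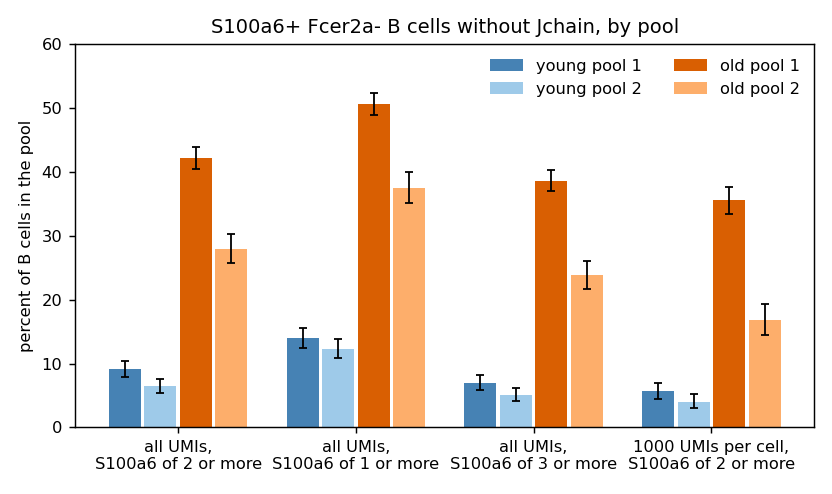
Percent of the B cells of each pool (vertical axis) that were S100a6+ Fcer2a- cells without Jchain, with 2, 1 or 3 S100a6 UMIs as the lower limit and with cells thinned to 1000 UMIs. Bars are single pools and error bars are exact 95% intervals for counting error. At the limit of 2 the young bars stand at 9.06% and 6.47% and the old bars at 42.2% and 28.0%.

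S100a6 itself set the rule, so its values only describe the cells. The median S100a6+ cell held 6 (young pool 1), 7 (young pool 2), 13 (old pool 1) and 6 (old pool 2) UMIs, and the highest cell held 128. Just inside the limit, cells with exactly 2 UMIs were 42 of 183 and 28 of 130 in young blood and 120 of 1412 and 63 of 426 in old blood. Just outside it lay 641 cells with 1 S100a6 UMI and 0 of Fcer2a. Along the steps of S100a6 from 0 to 6 or more UMIs, Crip1, which encodes a small LIM-domain protein, went from 1437 to 6952 CPM in young pool 1, from 1325 to 4271 in young pool 2, from 2200 to 14588 in old pool 1 and from 2416 to 7673 in old pool 2. Crip1 stood at 2376, 1609, 2944 and 2730 CPM in cells with 1 S100a6 UMI and at 3636, 2804, 3985 and 3774 CPM in cells with 2. The limit of 2 thus cut a graded series, in which the chemokine receptor gene Ccr7 went the other way, from 215 to 322 CPM at 0 UMIs to 15.7 to 107 CPM at 6 or more. Depth moved along the same steps, with medians of 1928 to 2464 UMIs per cell at 0 and 4654 to 5410 at 6 or more, and its part in these levels was not tested here.

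**Figure D2:**
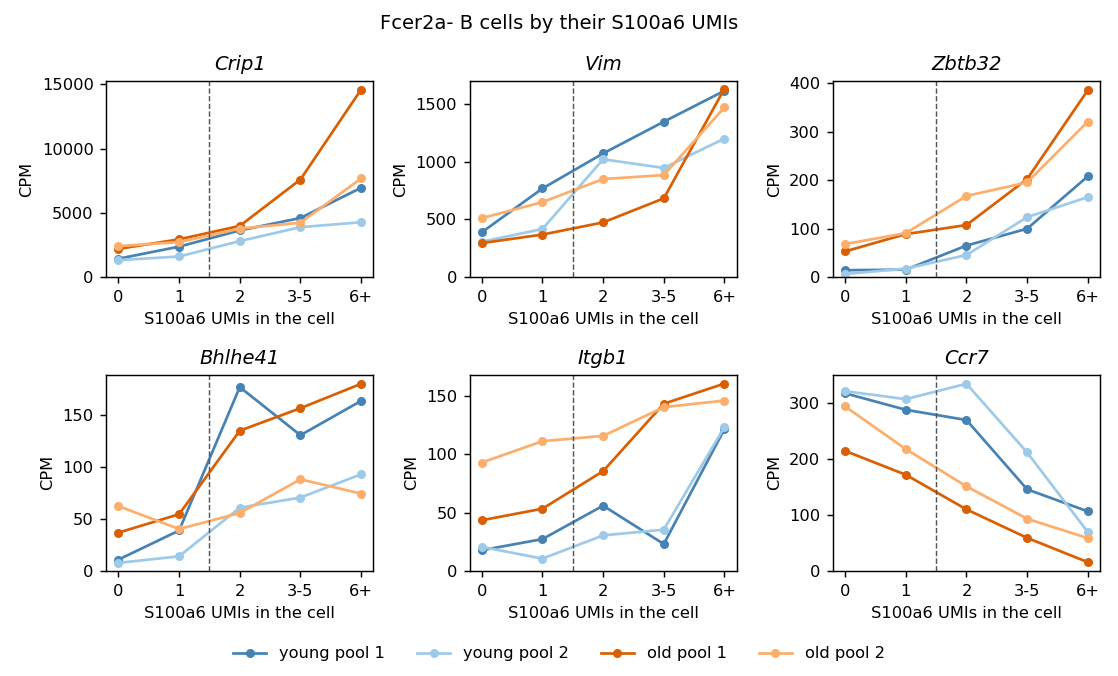
CPM (vertical axes) of Crip1, Vim, Zbtb32, Bhlhe41, Itgb1 and Ccr7 in Fcer2a-negative B cells grouped by their S100a6 UMIs (horizontal axes), with 1 line per pool. The dashed line marks the limit of 2 UMIs. Crip1 climbed in all 4 pools, from 1325 to 2416 CPM at 0 UMIs to 4271 to 14588 CPM at 6 or more, and Ccr7 ended at 15.7 to 107 CPM.

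The other markers given for these cells were at their level. Crip1 held 6104 and 4042 CPM in young and 13182 and 6265 CPM in old S100a6+ cells, against 1119 to 1831 CPM in the Fcer2a+ cells. Bhlhe41, a transcription factor needed by B1a cells, held 160 and 85.5 CPM in young and 175 and 76.1 CPM in old S100a6+ cells, against 3.19 to 8.68 CPM. Nacc2, a BTB-domain transcriptional repressor, held 37.2 and 41.1 CPM in young and 216 and 78.0 CPM in old S100a6+ cells, against 0.610 to 20.4 CPM. None of the 3 overlapped between the classes, though old pool 1 exceeded each other pool in all 3. Crip1 is no B cell marker by itself: with cells thinned to 1000 UMIs it was found in 86.2% to 98.2% of S100a6+ cells, 57.4% to 79.7% of Fcer2a+ cells and 59.4% to 92.5% of T cells, whereas Bhlhe41 was found in 6.15% to 15.5%, 0.459% to 1.03% and 0% to 0.307%. Each marker came with the definition of the cells, so its difference is a description, also where it is counted in a list below (Crip1 in the calcium list, Bhlhe41 and Nacc2 in the B1 and memory list).

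Next, the S100a6+ cells were compared with the Fcer2a+ cells of the same pool, to ask which other genes go with the choice. UMIs were summed per pool and class and tested in edgeR with the pool as a block, over genes found on average in at least 10% of cells and without the 10 genes of the rule. Of 3367 genes tested, 889 differed at an adjusted p under 0.05 (26.4%), 460 of them higher (13.7%) and 429 lower (12.7%) in the S100a6+ cells. The filter averaged over both classes, so a gene found almost only in one of them could enter and then had to differ. The same direction held in each of the 4 pools for 430 of the higher and 424 of the lower genes. These p-values speak of cells of the same libraries sorted by transcripts of the same cells, not of separately isolated populations. With all cells thinned to 1000 UMIs, 1030 genes could be tested, of which 138 were higher and 154 lower.

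Genes of calcium binding, LIM domains and the cytoskeleton were mostly higher in the S100a6+ cells. Of 25 tested, 19 were higher and 2 lower, with a median log2 difference of 0.96, against 0.01 over all genes tested. Of the 17 found in at least 10% of cells of each class, 11 were higher, with Crip1, a marker of the definition, among them. The other 8 of the 19, Anxa2 and S100a4 among them, were under that limit in the Fcer2a+ cells. They passed the filter through the S100a6+ cells, so the full count and the median are no support for a shift of the list. Anxa2, a calcium-dependent membrane-binding annexin, stood at 147 and 108 CPM in young and 295 and 88.5 CPM in old S100a6+ cells, and at 8.30 to 26.0 CPM in the Fcer2a+ cells (log2 difference 3.31 ± 0.29 SE, adjusted p = 7.2e-06). Vim, the intermediate filament vimentin, was nearly level across pools at 1495, 1134, 1456 and 1236 CPM, against 252 to 370 CPM (2.24 ± 0.12, adjusted p = 2.3e-07). S100a4, a neighbour of S100a6 in the S100 family, stood at 141 and 168 CPM in young and 59.3 and 63.3 CPM in old S100a6+ cells (3.20 ± 0.39, adjusted p = 8.4e-05). Lgals1 (galectin-1), Ahnak, Crip2, Lmna (lamin A/C) and Itgb1 (the integrin beta-1 chain) were higher by 2.79, 3.01, 3.23, 3.73 and 2.67 on the log2 scale. The 2 lower genes were actin-monomer binders, Pfn1 (profilin), which fell by 0.36, and Tmsb10, which fell by 0.66. Actin itself was no different by this test, at 3107 to 5077 CPM of Actb in the S100a6+ cells and 3739 to 4719 CPM in the Fcer2a+ cells (adjusted p = 0.57).

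The list of genes associated with B1 and memory B cells held 24 genes, of which 11 passed the filter on detection and 10 were higher, with none lower. Of the 10, 8 passed the filter through the S100a6+ cells, being found in under 10% of Fcer2a+ cells, so the count is no support for a shift of the list. Bhlhe41 and Nacc2, markers of the definition, are among these 8. The 2 found in at least 10% of cells of each class were Zbtb20 and Mzb1. Zbtb32, a zinc-finger repressor known from memory B cells, stood at 170 and 145 CPM in young and 349 and 268 CPM in old S100a6+ cells, and at 5.75 to 30.6 CPM in the Fcer2a+ cells (4.26 ± 0.20, adjusted p = 1.4e-07). After thinning, a Zbtb32 UMI was found in 13.7%, 11.5%, 25.6% and 19.5% of S100a6+ cells, against 0.455% to 2.06% of Fcer2a+ cells and 0.153% to 3.98% of T cells. Plscr1, a phospholipid scramblase, stood at 49.3 to 215 CPM against 4.88 to 17.4 CPM (3.41 ± 0.19, adjusted p = 2.3e-07). Ptpn22, a phosphatase that dampens antigen receptor signaling, stood at 123 to 214 CPM against 20.7 to 57.3 CPM (2.43 ± 0.16, adjusted p = 6.2e-07). Zcwpw1 (3.66 ± 0.17), the adhesion receptor Cd44 (1.72 ± 0.19), Zbtb20 (1.52 ± 0.14), Mzb1, a chaperone of antibody assembly (1.24 ± 0.09), and Itgb1 made up the rest. The costimulator Cd86 was the gene tested that did not pass, at 18.1 to 38.0 CPM against 21.9 to 39.0 CPM (adjusted p = 0.39). Another 13 members were below the filter. Among them were Cd5 and Spn (CD43), surface marks of B1a and B1 cells. They stood at 2.96 to 8.97 and 15.4 to 34.5 CPM in the S100a6+ cells, against 1.46 to 4.88 and 5.21 to 11.7 CPM. Cd80 and Nt5e (CD73), marks of memory cells, stood at 4.93 to 17.7 and 2.51 to 15.2 CPM, against 0.610 to 3.47 and 0 to 2.92 CPM. Bhlhe40 went the other way (1.28 to 5.23 against 4.27 to 12.2 CPM), and Id2 and Pdcd1lg2 overlapped. None of these was tested between the classes.

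**Figure D3:**
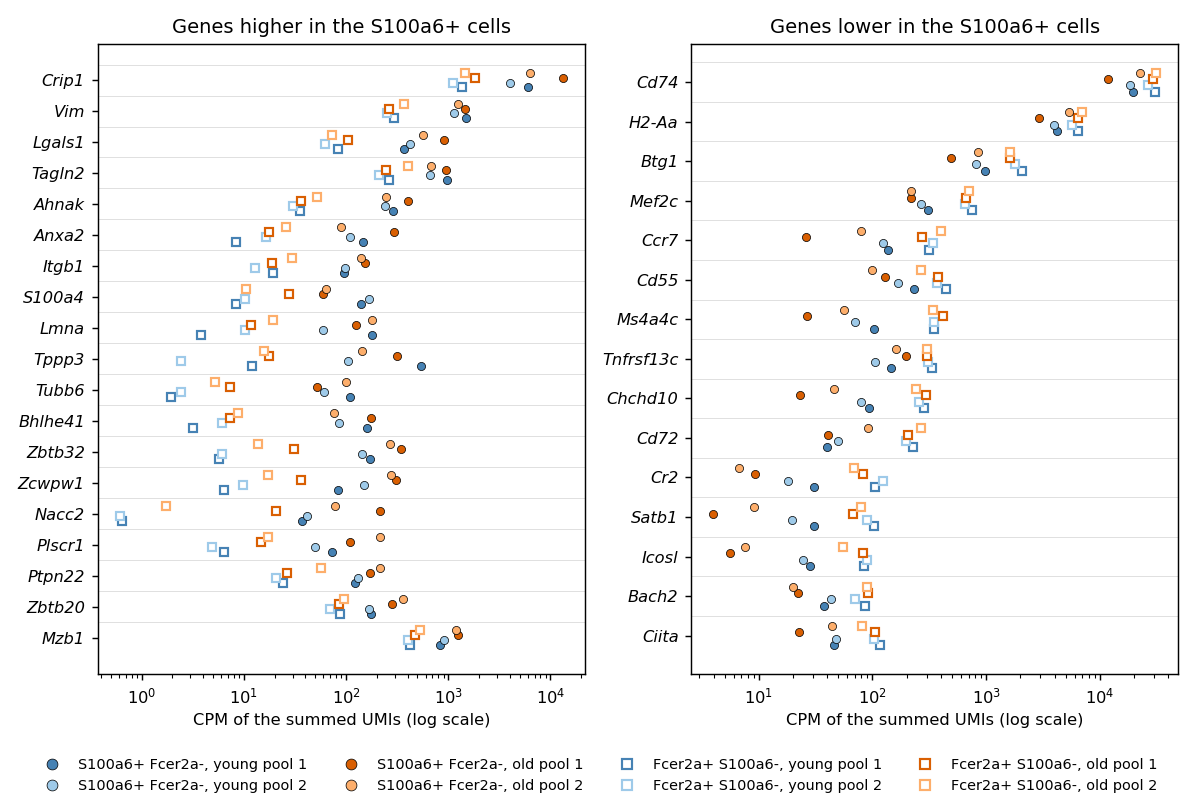
CPM on a log axis (horizontal) of genes that were higher (left) or lower (right) in S100a6+ Fcer2a- cells (filled circles) than in Fcer2a+ S100a6- cells (open squares), with 1 symbol per pool. In each gene drawn the 4 circles lie on one side of the 4 squares, for example Vim at 1134 to 1495 against 252 to 370 CPM and Cd72 at 39.7 to 91.3 against 197 to 266 CPM.

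Outside the lists the largest differences were in genes that the Fcer2a+ cells nearly lacked. Ahnak2, a giant scaffold protein, had 2059 UMIs in the S100a6+ cells and 2 in the Fcer2a+ cells, a ratio of CPM of 448 with a counting interval of 124 to 3704. Tppp3, a tubulin-binding protein, stood at 542 and 104 CPM in young and 312 and 144 CPM in old S100a6+ cells, against 2.44 to 17.5 CPM (4.81 ± 0.27, adjusted p = 2.4e-07). Tubb6, a beta-tubulin, stood at 51.9 to 110 CPM against 1.92 to 7.30 CPM (4.58 ± 0.33, adjusted p = 1.4e-06). The young pools lay far apart in Tppp3 and close together in Vim. The gene 1810046K07Rik and the long noncoding RNA Gm15228 completed the 10 largest, at 24.7 to 87.2 and 32.9 to 105 CPM.

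Genes of follicular and naive B cells were mostly lower. Of 19 tested, 13 were lower and 3 higher, with a median log2 difference of -1.16. Of the 19, 16 were found in at least 10% of cells of each class, the 3 higher genes among them. The others passed the filter through 1 class, so the full count and the median are no support for a shift of the list. Of all tested genes, 12.7% were lower and 13.7% higher. Cr2, which encodes a complement receptor, stood at 30.8 and 18.1 CPM in young and 9.32 and 6.66 CPM in old S100a6+ cells, against 69.5 to 123 CPM (-2.70 ± 0.25, adjusted p = 1.1e-05). A Cr2 UMI was found in 3.29% to 11.5% of S100a6+ cells and 14.7% to 23.8% of Fcer2a+ cells. Cr2 thus passed the filter through the Fcer2a+ cells, and its difference is a description. Satb1, a chromatin organizer of lymphocytes, stood at 30.8, 19.7, 3.99 and 9.04 CPM against 67.1 to 103 CPM (-2.78 ± 0.32, adjusted p = 6.2e-05). Ccr7 stood at 136 and 125 CPM in young and 26.0 and 79.4 CPM in old S100a6+ cells, against 270 to 405 CPM (-2.05 ± 0.28, adjusted p = 0.00021). All 3 were lower in both old than in both young pools of S100a6+ cells, although no age test called Ccr7 and the others were too rare to enter that test. Icosl, the ligand of the T cell costimulator ICOS, fell by 2.62, and the transcription factors Bach2, Mef2c, Ebf1, Ets1 and Pax5, which hold B cells in their identity or in the naive state, fell by 1.56, 1.41, 0.95, 0.64 and 0.56. The 3 higher members were Cxcr5, the receptor that guides B cells to follicles (0.43 ± 0.11), S1pr1, the receptor for exit into blood (0.42 ± 0.11), and Cd24a (0.69 ± 0.22). Cd24a was level between the classes in young blood, at 361 and 339 against 360 and 378 CPM. It stood apart only in the old pools, at 584 and 725 against 249 and 264 CPM.

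Of the lower genes outside this list, Neurl3, Lrrk2, Ms4a4c, Gpr171, Il4i1, Rasgrp3 and Chchd10 differed by -2.69, -2.66, -2.66, -2.65, -2.65, -2.37 and -2.36 on the log2 scale. Ms4a4c, a membrane protein of the CD20 family, had the highest level of these, at 104 and 70.7 CPM in young and 26.5 and 56.1 CPM in old S100a6+ cells against 342 to 414 CPM, and it belongs to a family of similar genes between which reads can be split.

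Antigen presentation genes were lower with none higher: 17 of 23 tested were lower, by a median of -0.43 on the log2 scale. Of all tested genes, 12.7% were lower. Cd74, the invariant chain of MHC class II, stood at 19649 and 18566 CPM in young and 11820 and 22620 CPM in old S100a6+ cells, against 26576 to 31376 CPM (-0.67 ± 0.16, adjusted p = 0.0097). H2-Aa, a class II chain, stood at 2923 to 5339 CPM against 5677 to 7030 CPM (-0.62 ± 0.13, adjusted p = 0.0044). Ciita, the master activator of class II genes, stood at 22.5 to 47.7 CPM against 81.6 to 116 CPM (-1.39 ± 0.20, adjusted p = 0.00036). Class II was thus present in quantity, at a reduced level, and H2-Oa, a modulator of peptide loading, fell by 1.40. Class I chains differed less: H2-K1 fell by 0.35, and H2-D1 did not pass the test (-0.13, adjusted p = 0.33).

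Among genes of the B cell receptor and its coreceptors, 3 of 23 tested were higher and 7 lower. Of all tested genes, 13.7% were higher and 12.7% lower, so the higher count lies near the general share. The receptor chain Cd79b (1898 to 1959 CPM against 2025 to 2407) and Ms4a1 (CD20, 1048 to 1348 against 1022 to 1226 CPM) did not pass the test. The kinases Syk and Blk were higher by 0.67 and 0.53, as was Fcgr2b, the inhibitory IgG receptor, by 0.89. Cd72, an inhibitory coreceptor, fell by 2.01, at 39.7 to 91.3 CPM against 197 to 266 CPM, Fcrl1 by 1.48, Cd40 by 0.96, the phosphatase gene Ptpn6 by 0.72 and Cd22 by 0.68.

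Homing receptors and integrins split, with 5 of 15 tested higher and 5 lower. Of the 13 found in at least 10% of cells of each class, 3 were higher. The other higher genes, Itgb1 and Cd44, passed the filter through the S100a6+ cells and are counted in the B1 and memory list as well. Over all tested genes 13.7% were higher and 12.7% lower. The 1 higher gene in each of the survival and interferon lists below is no more than that share. Itgb7, a chain of the gut-homing integrin, stood at 214 to 402 CPM against 120 to 160 CPM (0.99 ± 0.13, adjusted p = 0.00013), while Cxcr4, the receptor for bone marrow retention, fell by 1.39, Icam2 by 0.76 and S1pr4 by 0.57. Of survival genes, Mcl1 was higher (0.89 ± 0.10, adjusted p = 6.0e-05), and Tnfrsf13c, the BAFF receptor, fell by 0.97, Cflar by 0.79 and Bcl2 by 0.38 among 8 tested. Of interferon-stimulated genes, 6 of 11 tested were lower, Shisa5 (-1.04) and Samhd1 (-0.60) among them, and Ly6a was higher (0.81 ± 0.18, adjusted p = 0.0064). Of immediate early genes, 5 of 15 were higher, Myc most (1.60 ± 0.17, adjusted p = 4.0e-05). Myc was found in under 10% of Fcer2a+ cells and passed the filter through the S100a6+ cells. Of the 14 found in at least 10% of cells of each class, 4 were higher. Of the 15, 6 were lower, Dusp2 (-1.46), Cd83 (-0.97) and the early activation marker Cd69 (-0.94) among them.

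The remaining lists moved little or were mostly undetected. Plasma cell genes gave 3 higher of 4 tested, Mzb1, Creld2 (1.24 ± 0.32) and Sec11c (0.44 ± 0.10), where 13.7% of all tested genes were higher. Creld2 was found in under 10% of Fcer2a+ cells and passed the filter through the S100a6+ cells. Mzb1 is counted in the B1 and memory list as well. The plasma cell regulators Xbp1 (37.6 to 74.0 against 52.5 to 69.5 CPM, adjusted p = 0.68) and Prdm1 (3.29 to 12.8 against 0 to 1.22 CPM, below the filter) were not called. Of 16 age-associated B cell genes only 4 could be tested: Zeb2 (0.63 ± 0.15) and Ahnak were higher, Cd72 was lower and Cd86 did not pass. Ahnak, too, passed the filter through the S100a6+ cells. The defining Tbx21 and Itgax held 1.04 to 4.28 and 0 to 1.90 CPM in the S100a6+ cells. Ribosomal protein genes were higher in 30 of 85 and oxidative phosphorylation genes in 11 of 74, with none lower and medians of 0.24 and 0.10. The latter count lies near the 13.7% of all tested genes that were higher. Of the S and G2/M genes, Hmgb2 fell by 0.45 and 3 others tested did not pass. A UMI of Mki67, a gene of cycling cells, was found in 0 of the 183 and 130 young S100a6+ cells and in 1.06% and 0% of the old ones. A count of 0 allows shares of up to 1.64% and 2.31% (young) and 0.704% (old pool 2) of cells with such a UMI, and sets no limit on cells that express the gene. Markers of other cells gave 2 of 4 monocyte genes higher, Ms4a6c (2.66) and Tyrobp (0.81). Ms4a6c was found in under 10% of Fcer2a+ cells and passed the filter through the S100a6+ cells. Of 5 red cell genes 4 were lower, no T cell marker passed the filter, and the 3 platelet genes tested were not called.

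**Figure D4:**
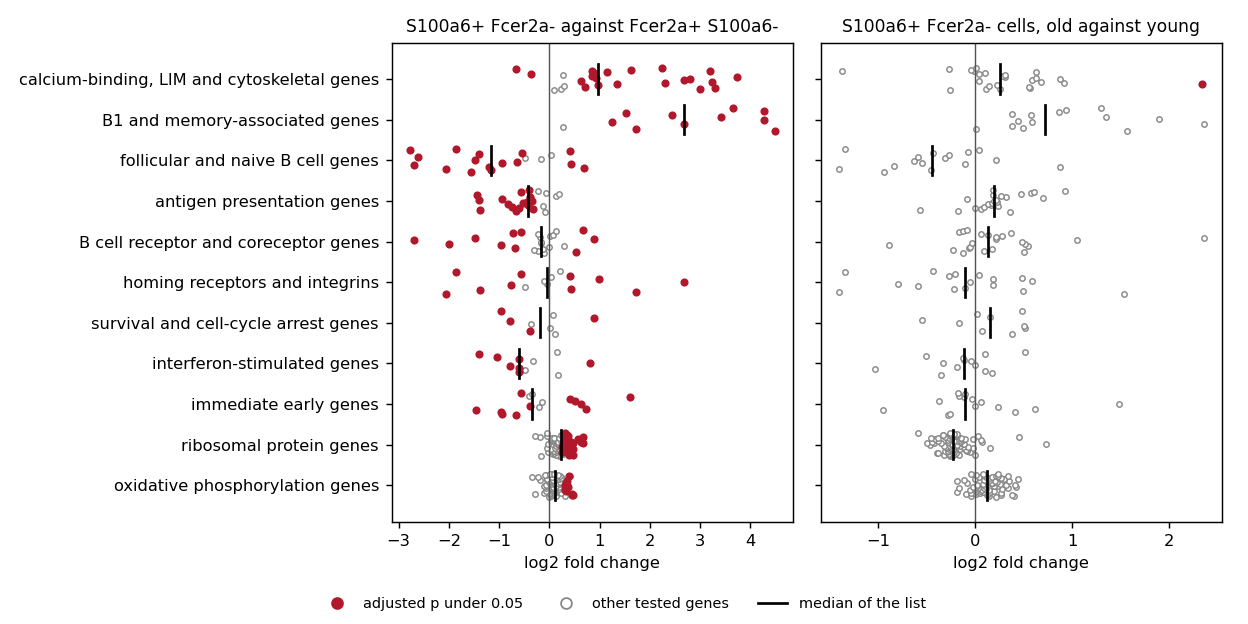
Log2 fold change (horizontal axes) of each tested gene of 11 lists between S100a6+ Fcer2a- and Fcer2a+ S100a6- cells (left) and between old and young S100a6+ Fcer2a- cells (right). Filled points passed an adjusted p of 0.05 and open points did not. Black bars are list medians, which on the left run from -1.16 (follicular and naive genes) to 2.67 (B1 and memory-associated genes). The latter is no support for a shift, since 8 of the 10 higher genes of that list passed the filter through the S100a6+ cells. The same holds for 8 of the 19 higher genes of the calcium list. Of the 19 follicular and naive genes, 16 were found in at least 10% of cells of each class, so their median is no support either. On the right 1 point among these lists, Cd9, is filled.

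With age, few genes were called within the S100a6+ cells, which does not show that few changed. In counts simulated with a shared spread, the age test found 43.8% of genes changed by 1 on the log2 scale. It found 96.8% of those changed by 2. Of 4051 tested between 2 old and 2 young pools, 9 were called (0.222%), each higher in old, and 430 had an unadjusted p under 0.05. Detection was averaged over both ages, so a gene found almost only in old pools could enter the test and then had to lean that way. With 10% of cells required in each age, 2 were called, C130026I21Rik and Cd9. DESeq2 called 41 of them, 33 higher and 8 lower. Without old pool 2 the count was 499 (244 higher and 255 lower), without old pool 1 it was 154 (100 higher and 54 lower), and without young pool 1 it was 2. In these fits the lone pool was assumed to vary like the pools of the other age.

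Of the 9 genes, 3 are platelet genes. Ppbp (platelet basic protein) had 0 UMIs in both young pools and 118 and 123 CPM in the old ones, at least 55.2-fold higher against the limit of 3 counts over the young pools. Pf4 (platelet factor 4) stood at 0 and 4.93 CPM in young and 107 and 91.8 CPM in old pools, a ratio of 47.9 with a counting interval of 16.3 to 233. Gng11, a G protein subunit of platelets, stood at 0 and 8.22 CPM in young and 76.4 and 82.3 CPM in old pools (4.40 ± 0.62, adjusted p = 0.046). The Fcer2a+ cells of the old pools held these RNAs as well, at 174 and 148 CPM of Ppbp against 0 and 1.22 in the young. Of the S100a6+ cells, 0% and 1.54% in the young pools held a Ppbp or Pf4 UMI, as did 43.3% and 36.6% in old pools 1 and 2. Of the Fcer2a+ cells, the shares were 0.455% and 0.909% (young) and 34.4% and 29.8% (old). Summed over 9 platelet markers, the S100a6+ cells held 0 and 16.4 CPM in young and 408 and 383 CPM in old pools, with 5 of the 9 at 0 in both young pools.

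Ctla2a, a cysteine protease inhibitor with a similar gene, Ctla2b, beside it, stood at 7.69 and 18.1 CPM in young and 274 and 216 CPM in old S100a6+ cells (4.27 ± 0.34, adjusted p = 0.0013). Tsc22d1, a transcriptional regulator, stood at 10.3 and 4.93 CPM in young and 75.7 and 93.2 CPM in old (3.38 ± 0.35, adjusted p = 0.0062). Both showed the same order in the Fcer2a+ cells, where Ctla2a held 3.19 and 6.71 CPM in young and 337 and 240 CPM in old pools. Leaving out every cell with a Ppbp or Pf4 UMI left 4 calls, AC168977.1, C130026I21Rik, Cd9 and Ctla2a. AI427809 was no longer called there (2.83, adjusted p = 0.059), and Tsc22d1 was too rare to be tested.

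Cd9, a tetraspanin of marginal zone, B1 and plasma cells and also of platelets, rose from 51.3 and 54.2 CPM to 273 and 271 CPM (2.34 ± 0.19, adjusted p = 0.0013). After thinning, 6.56% and 3.08% of S100a6+ cells held it in young blood and 22.7% and 22.5% in old blood. The shares were 1.21% and 0.758% (young) and 10.7% and 9.63% (old) in Fcer2a+ cells, and 4.88% and 5.37% (young) and 15.9% and 11.04% (old) in T cells. The old pools were thus the higher ones in both B cell classes and in T cells, and the difference between the classes in this change did not pass the test (-1.05, adjusted p = 0.19).

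The remaining calls were poorly known loci. AC168977.1 stood at 5.13 and 3.29 CPM in young and 281 and 241 CPM in old S100a6+ cells (5.88 ± 0.30, adjusted p = 0.00017), and at 1.92 and 1.83 CPM in young and 13.1 and 31.3 CPM in old Fcer2a+ cells. C130026I21Rik, a protein-coding gene on chromosome 1 (84992690 to 85270566, minus strand, GRCm38) that the annotation marks as overlapping another locus, rose from 30.8 and 39.4 CPM to 287 and 256 CPM (2.93 ± 0.22, adjusted p = 0.0013). AI427809, a long noncoding RNA on chromosome 4 (53261356 to 53270232, minus strand), rose from 6.41 and 9.86 CPM to 62.7 and 47.1 CPM (2.76 ± 0.38, adjusted p = 0.040). Their levels were higher in S100a6+ than in Fcer2a+ cells of both old pools, where a UMI of AC168977.1 was found in 23.5% and 18.3% of thinned S100a6+ cells, 1.37% and 0.917% of Fcer2a+ cells and 1.49% and 0% of T cells. The change with age did not differ by test between the classes for AC168977.1 (2.40, adjusted p = 0.43) or C130026I21Rik (1.09, adjusted p = 0.35), and reads of overlapping or repeated loci can be split between copies.

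**Figure D5:**
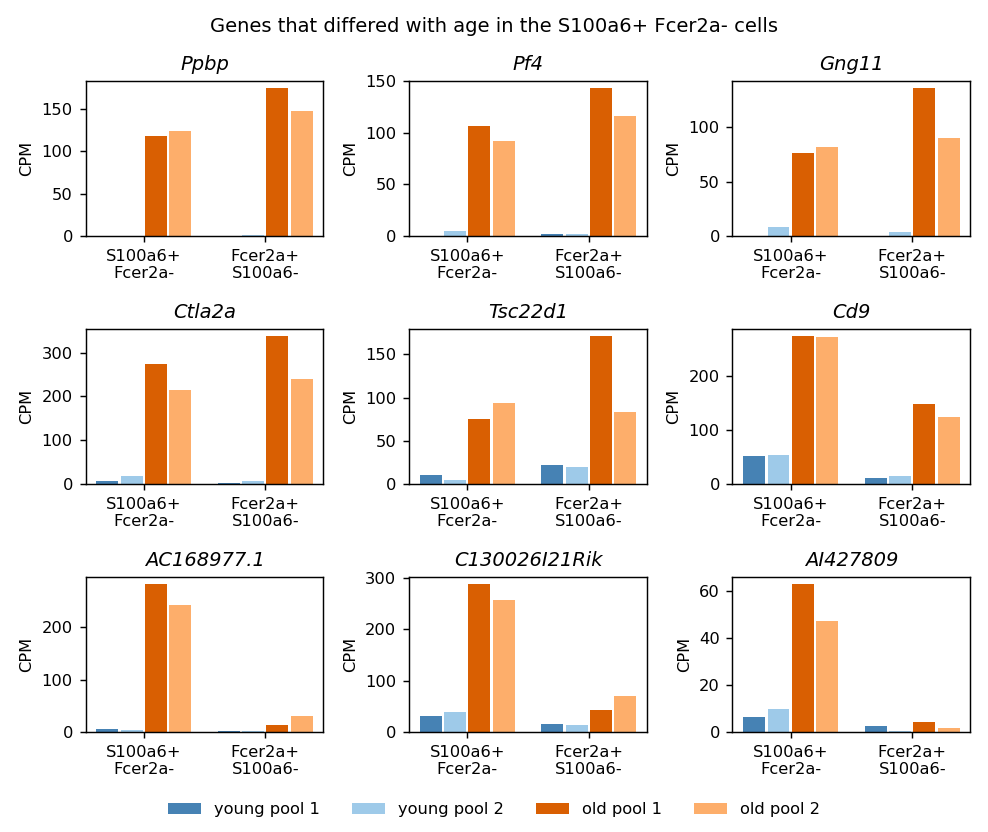
CPM (vertical axes) by pool of the 9 genes called with age in the S100a6+ Fcer2a- cells (left group of bars in each panel) and the same genes in Fcer2a+ S100a6- cells (right group). Bars are single pools. Ppbp, Pf4, Gng11 and Ctla2a stood high in the old pools of both classes, while AC168977.1 held 281 and 241 CPM in old S100a6+ cells and 13.1 and 31.3 CPM in old Fcer2a+ cells.

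No other listed gene was called with age, so the lists are described by direction only, beside 1976 of 4051 tested genes above 0 and a median of -0.01. Genes of B1 and memory cells lay above 0 in 14 of 14 tested (median 0.72, over genes that passed the filter averaged over ages), with Zbtb32 at 0.94 (adjusted p = 0.12) and Zcwpw1 at 1.30 (adjusted p = 0.14). Follicular and naive genes lay below 0 in 13 of 16 (median -0.44). Ribosomal protein genes lay below 0 in 78 of 85 (median -0.23), oxidative phosphorylation genes above 0 in 62 of 74 (median 0.13), and antigen presentation genes above 0 in 19 of 23 (median 0.20). S100a4 was the listed gene nearest to a lower call, at 141 and 168 CPM in young and 59.3 and 63.3 CPM in old S100a6+ cells (-1.37 ± 0.20, adjusted p = 0.054). The cell-cycle inhibitors Cdkn1a and Cdkn2a were too rare to test. Cdkn1a had 0 UMIs in both young pools, where 3 counts would be 2.16 CPM over the pair, and 104 and 14 UMIs in the old (15.4 and 6.66 CPM), and Cdkn2a had 0 in both young pools and 34 and 8 UMIs in the old.

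The change with age was then compared between the classes, gene by gene. Of 3367 genes, 1 was called (0.0297%). Cd24a, a surface glycoprotein that is high in immature B cells, stood at 361 and 339 CPM in young and 584 and 725 CPM in old S100a6+ cells, and at 360 and 378 CPM in young and 249 and 264 CPM in old Fcer2a+ cells. The classes were level in young blood and apart in old blood, and the difference in the change was 1.36 ± 0.17 on the log2 scale (adjusted p = 0.033). The call was lost with cells thinned to 1000 UMIs (1.16, adjusted p = 0.17) and without either young pool.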

How the data were processed

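Blood cells of 2 young and 2 old pools were profiled with droplet 3′ libraries. The authors deposited UMI counts per gene and cell, aligned and counted by Cell Ranger (mm10 reference), aggregated by age and filtered for genes and mitochondrial reads per cell in Seurat 2.3.0. The deposited table held 14588 cells and 14697 genes, and a deposited list gave each cell's sample. No doublet caller was run; the limits on Lyz2 and Cd3 removed mixed cells in part. The immunoglobulin genes were not analysed here, and the levels of 2 listed genes are not reported here.

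UMIs were summed per pool and class and tested over genes whose share of cells with a UMI averaged at least 10% over the sums in the fit, using edgeR 4.0.16 (quasi-likelihood, TMM normalization, Benjamini-Hochberg adjustment over all genes tested, threshold 0.05): by age within the S100a6+ cells, by class with the pool as a block, and for the class by age term. SE is the standard error of the log2 fold change. DESeq2 1.42.0, other filters, thinning to 1000 UMIs per cell (no cell had fewer) and leaving out pools were alternatives. The tests were checked on simulated data. The cells, gene lists and tests were chosen with earlier results of these data known. Lists were written by symbol. Named genes were called list members with large changes or high levels and, outside the lists, the 10 largest called changes in each direction (for class, with at least 50 CPM in the higher class and 1 direction in all 4 pools). Same-numbered pools share only a number. Tests ran in R 4.3.3, and tables were made in Python 3.11.15 with pandas 2.3.3, numpy 2.4.6, matplotlib 3.10.9 and scipy 1.17.1. Gene positions come from GENCODE for GRCm38. Nothing in the sources says more of how the mice were allotted to pools, so p-values by age measure the spread between pools only. In the class and class by age fits the pool was a block. Their p-values measure how far the class difference varied from pool to pool.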

Additional observations from a re-analysis of the deposited data

Results flagged for a closer look

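The change of Cd24a with age differed between the 2 B cell classes by 1.36 ± 0.17 (SE, log2 scale; edgeR adjusted p = 0.033). Its level was higher in both old than in both young pools of S100a6+ cells, and lower in both old than in both young pools of Fcer2a+ cells.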

How the results depend on the processing

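The share of S100a6+ cells among B cells was higher in old blood under each alternative tried, with differences of 20.9 to 34.1 percentage points over other limits and denominators, 55.4 over S100a6+ plus Fcer2a+ cells alone (an alternative chosen after seeing the data) and 20.2 to 34.4 without each pool in turn. For age within the S100a6+ cells (9 calls), DESeq2 gave 41, filterByExpr 25, no filter beyond 1 UMI 300, thinned cells 4, cells without platelet RNA 4, detection in 10% of cells in each age 2 and leaving out each pool 2 to 499. For class (889 calls), DESeq2 gave 505, no filter 1740, thinned cells 292 and leaving out each pool 594 to 816. For the class by age term (1 call), DESeq2 and filterByExpr gave 2 each, no filter 85, S100a6 of at least 3 UMIs 3, thinned cells 0 (132 of 1030 genes had an unadjusted p under 0.05) and leaving out each pool 0 to 219. Thinning left fewer genes to test, and the cause of the other shifts was not tested. Of the genes named, the class differences passed in 237 of 237 refits, of which 33 concern the 3 markers of the definition, and the 9 age calls in 77 of 93, AC168977.1 and Ppbp in each one that could test them; without young pool 1 the other 7 were lost. A replicate block by pool number gave 10 age calls but lost Gng11 and AI427809 (adjusted p = 0.063 each). The deviations of same-numbered pools correlated at -0.04 across genes. No direction reversed among the results and alternatives given here. With 2 pools per age and 130 to 1412 cells per pool, rare genes such as Cd5 and Tbx21 could not be compared.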

Other observations

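In the S100a6+ cells somewhat more genes differed by over 2-fold between the 2 old pools than between the young pools. Among genes with at least 200 CPM in either pool, 15 of 587 differed by over 2-fold between the old pools, against 8 of 522 between the young pools and 4 of 567 between the old pools in Fcer2a+ cells. With 1 pool on each side there is no test, and the genes were taken by the size of the ratio. Old pool 1 was higher in Ass1, an enzyme of arginine synthesis (472 against 129 CPM, 183 and 199 CPM in the young pools), in Ppil1 (285 against 103 CPM) and in Myadm (231 against 107 CPM), beside Anxa2, Nacc2, Ahnak2, Tppp3 and Crip1, which were also higher in S100a6+ than in Fcer2a+ cells.

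Old pool 2 was higher in Wfdc17, a small secreted protein gene known from myeloid cells (277 against 33.7 CPM, a ratio of 8.22), in Psmd14, a proteasome subunit (357 against 79.4 CPM), and in Apoe, the lipid carrier (1151 against 487 CPM). In Apoe both old pools exceeded the young S100a6+ cells, at 158 and 279 CPM, and the Fcer2a+ cells of the old pools stood at 257 and 386 CPM. With cells thinned to 1000 UMIs, 14.8% and 19.2% of S100a6+ cells held an Apoe UMI in young blood and 28.4% and 54.7% in old blood, against 25.3% and 23.2% (young) and 17.5% and 22.5% (old) of Fcer2a+ cells and 3.92% to 8.59% of T cells. Of the 24 B1 and memory-associated genes, 12 were higher in old pool 1 and 12 in old pool 2. The chemokine receptor gene Ccr1 stood at 7.25 and 104 CPM in old pools 1 and 2 and at 21.8 and 13.1 CPM in the young ones.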
